A study of Saccharomyces cerevisiae with 12 samples.

Results

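The mitochondrial protein import machinery was followed through 32 genes of Saccharomyces cerevisiae, chosen by name for their place in the import pathway. They were not picked by a measured value, but earlier results of these data were known when they were chosen. All 32 were found among the 6352 genes of each table analysed. RNA was sequenced from 12 libraries in 6 groups of 2. The wild type was BY4741, a haploid laboratory strain, and the others carried a deletion of SCD6 (Δscd6) or of SBP1 (Δsbp1). Both genes encode RGG-motif proteins that bind mRNA and hold back its translation. Each strain was grown in YEPD, a rich glucose medium, to an optical density of 0.4 to 0.5 at 600 nm and taken untreated or after 30 minutes with sodium azide at 0.5%, which blocks cytochrome c oxidase. The study asked how each strain's transcriptome changes under azide.

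Nearly all mitochondrial proteins are made in the cytosol and must be threaded into the organelle. The TOM complex of the outer membrane receives them. From there the TIM23 complex and its ATP-driven motor take proteins with a cleavable presequence into the matrix, the small Tim chaperones and the TIM22 complex bring carriers to the inner membrane, the SAM complex builds barrel proteins into the outer membrane, and the disulfide relay of Mia40 and Erv1 traps small cysteine-rich proteins between the membranes. Passage through TIM23 and TIM22 needs the membrane potential of the inner membrane, which respiration maintains.

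The values come from 7 tables of the authors' own comparisons, which list for each gene a mean normalised count and a fold change with its p-value, raw and adjusted. The mean normalised count of the 32 genes in the authors' deposited table lay between 287 and 5515 (median 822), against a median of 589 over all genes. These counts are not divided by gene length and do not rank the genes. The depth of a library and values per library were not analysed here. Error is given as the standard error that a fold change and its p-value imply, whose median over the 32 genes was about 0.24 on the log2 scale. Group levels quoted below were rebuilt from the mean normalised count and the fold changes, taking that mean as a plain average over equal groups, and carry no error of their own. Rises and falls are named where the adjusted p is under 0.05. The labels do not say that replicates were separate cultures, so every p-value here reflects only how far these libraries differ, which may be technical. In bulk RNA, fewer cells of a kind and less RNA per cell cannot be told apart. In the authors' deposited table SCD6 was at -6.28 in untreated Δscd6 cells and SBP1 at -8.30 in untreated Δsbp1 cells, the direction their labels give.

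Azide lowered part of the import machinery in every strain. In the wild type 12 of the 32 genes fell and 0 rose in the authors' deposited table, where 20.6% of all genes fell and 21.3% rose (42.0% in all). In Δscd6 10 fell and 0 rose (20.4% and 22.1% of all genes, 42.5% in all), and in Δsbp1 11 fell and 2 rose (27.4% and 27.5% of all genes, 54.9% in all), by the authors' deposited table. At an unadjusted p under 0.05, the wild type had 13 falls and 1 rise, Δscd6 11 falls and 2 rises, and Δsbp1 13 falls and 2 rises. These totals are smaller shares of the import genes than the 49.2%, 49.9% and 59.3% of all genes at that limit. The median log2 change of the 32 genes was -0.38 in the wild type, -0.32 in Δscd6 and -0.40 in Δsbp1, beside -0.015, -0.017 and -0.018 over all genes.

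The direction depends in part on the scale. The rebuilt group totals were lower in azide than in untreated cells, by -0.15 on the log2 scale in the wild type, -0.39 in Δscd6 and -0.28 in Δsbp1, so scaling the groups to equal totals raises every log2 change by that much. On that scale 8 import genes fell and 1 rose in the wild type, where 15.7% of all genes fell and 27.6% rose. In Δscd6 2 fell and 6 rose (8.46% and 40.2% of all genes), and in Δsbp1 6 fell and 4 rose (19.4% and 38.7% of all genes). The median of the 32 genes then became -0.23 in the wild type, 0.07 in Δscd6 and -0.12 in Δsbp1, and that of all genes 0.14, 0.37 and 0.26. The falls lost on that scale were those of TIM9, TIM21, TIM54 and TOM40 in the wild type, all but OXA1 and TIM10 in Δscd6, and TIM22, TIM17, TOM20, TOM22 and TOM71 in Δsbp1. The rises gained were those of SAM37 in the wild type, of SAM37, SAM50, TOM70, TIM18, TIM50 and MIA40 in Δscd6, and of TIM8 and TOM70 in Δsbp1.

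OXA1, TIM10, TIM22, PAM18 and TOM40 fell in all 3 strains, which is 15.6% of the 32 genes beside 11.4% of all genes. Of these, OXA1 and TIM10 also passed in all 3 strains with equal totals. Another 14 genes fell in 1 or 2 strains, so that 59.4% of the import genes fell somewhere, against 33.8% of all genes. The test was passed in neither direction in any strain by 11 genes, 34.4% of the import genes and close to the 32.7% of all genes. They were ERV1, MIA40, PAM16, PAM17, TIM13, TIM18, TIM44, TIM50, TIM8, TOM6 and TOM70.

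**Figure D1:**
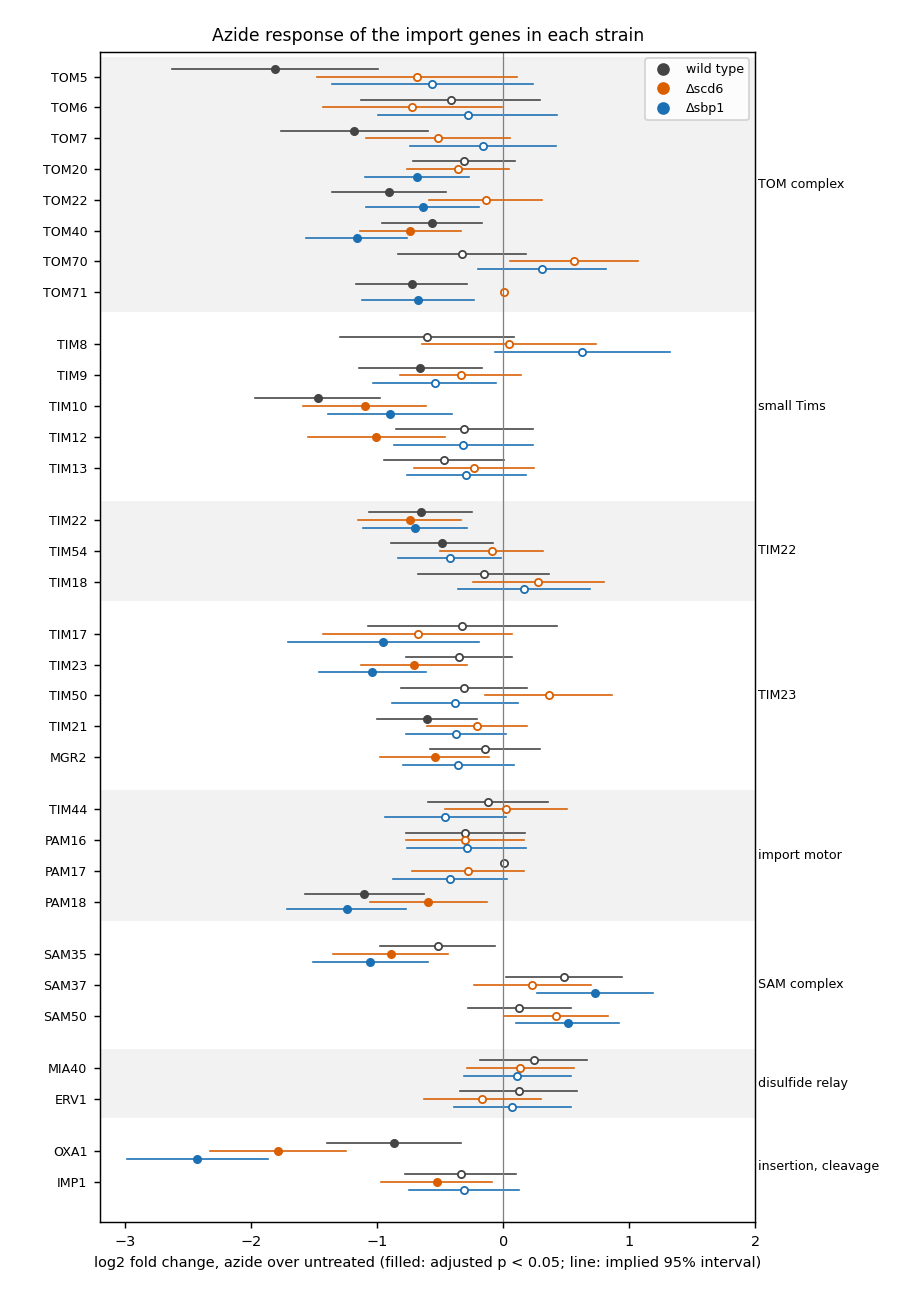
Log2 fold change of each import gene with azide over untreated cells, on the x axis, in the wild type (grey), Δscd6 (orange) and Δsbp1 (blue), with genes grouped by complex on the y axis. Points are the authors' values, filled where the adjusted p is under 0.05, and lines are the implied 95% intervals, left out where a change is under 0.02 in size. Most points lie below 0, with medians of -0.38, -0.32 and -0.40 (with equal totals -0.23, 0.07 and -0.12), and OXA1 in Δsbp1 is farthest left at -2.43.

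OXA1 encodes the insertase that places proteins into the inner membrane from the matrix side, among them mitochondrially made subunits of cytochrome c oxidase. Its rebuilt level went from 997 to 546 normalised counts with azide in the wild type, from 1497 to 433.5 in Δscd6 and from 1235.5 to 229 in Δsbp1. The rebuilt level was thus lowest in azide-treated Δsbp1 cells and highest in untreated Δscd6 cells. In untreated cells neither deletion strain passed against the wild type, at 0.59 in Δscd6 (adjusted p = 0.20) and 0.31 in Δsbp1 (0.75) in the authors' deposited table. Equal totals lower that value of Δscd6 by 0.28, so the order of the untreated levels depends on the scale. The authors' deposited table gives log2 changes of -0.87 in the wild type (adjusted p = 0.0047), -1.79 in Δscd6 (2.2e-09) and -2.43 in Δsbp1 (3.0e-16), with implied standard errors of 0.27, 0.28 and 0.29. These are fold values of 0.548, 0.29 and 0.186 in the authors' deposited table.

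Within the TOM complex, 1 subunit fell in all 3 strains and 5 others fell in 1 or 2. TOM40, the channel itself, went from 5418 to 3663 normalised counts in the wild type, from 8467 to 5080 in Δscd6 and from 7234 to 3228 in Δsbp1. It fell in each strain of the authors' deposited table, by 0.56 (adjusted p = 0.016), 0.74 (0.0013) and 1.16 (8.6e-08) on the log2 scale. With equal totals, its falls in the wild type and Δscd6 no longer passed. TOM5, a small subunit that helps hand proteins to the channel, went from 645 to 184 normalised counts in the wild type, from 664 to 413 in Δscd6 and from 345 to 234 in Δsbp1. Its log2 changes in the authors' deposited table were -1.81 (8.9e-05), -0.68 (0.16) and -0.56 (0.24), so that the wild type alone passed, with the largest fall of any import gene there. TOM7, another small subunit, also fell in the wild type alone in the authors' deposited table, with -1.18 (3.8e-04), -0.52 (0.14) and -0.16 (0.66), while TOM6 passed in no strain at -0.42, -0.72 and -0.28.

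Of the receptors, TOM22, which ties the complex together, fell in the wild type (-0.91, adjusted p = 4.1e-04) and in Δsbp1 (-0.64, 0.012), and Δscd6 had -0.14 (0.65), by the authors' deposited table. The same strains passed for TOM71, a less abundant relative of Tom70, at -0.73 (0.0045) and -0.68 (0.0068), with 0.01 (0.98) in Δscd6, by the authors' deposited table. In the authors' deposited table TOM20, a presequence receptor, fell in Δsbp1 (-0.69, 0.0028), with -0.31 (0.22) in the wild type and -0.36 (0.15) for Δscd6. TOM70, the receptor for carrier proteins, did not pass in the authors' deposited table at -0.33 (0.31), 0.56 (0.068) and 0.31 (0.31). In all, 5 of the 8 TOM genes fell in the wild type, 1 in Δscd6 and 4 in Δsbp1, with 0 rises. Of all genes, 20.6%, 20.4% and 27.4% fell and 21.3%, 22.1% and 27.5% rose. The falls of TOM40 in the wild type and Δscd6, and of TOM20, TOM22 and TOM71 in Δsbp1, were lost with equal totals. TOM70 then passed as a rise in both deletion strains.

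The small Tim chaperones shield hydrophobic proteins between the membranes, Tim9 paired with Tim10 and Tim8 with Tim13, while Tim12 docks at the TIM22 complex. TIM10 went from 1260 to 455 normalised counts in the wild type, from 1780 to 830 in Δscd6 and from 1223 to 656 in Δsbp1, so every azide level was below every untreated level. In the authors' deposited table it fell by 1.47 (adjusted p = 7.2e-08), 1.10 (7.0e-05) and 0.90 (9.2e-04). Its partner TIM9 fell in the wild type (-0.66, 0.023) and was at -0.34 in Δscd6 (0.26) and -0.54 in Δsbp1 (0.052) in the authors' deposited table. TIM12 fell in Δscd6 (-1.01, 0.0013) and was at -0.31 (0.38) in the wild type and -0.32 (0.34) in Δsbp1 of the authors' deposited table. TIM13 was at -0.47, -0.23 and -0.29 and TIM8 at -0.60, 0.05 and 0.63 in the authors' deposited table, and neither passed.

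Among inner membrane translocases, TIM22, the carrier channel, had nearly equal log2 changes in the authors' deposited table of -0.66 (adjusted p = 0.0060), -0.74 (0.0017) and -0.70 (0.0023). With equal totals the falls of TIM22 in both deletion strains no longer passed. Its partners were at -0.48 (0.047), -0.09 (0.75) and -0.42 (0.073) for TIM54, and at -0.15, 0.28 and 0.17 for TIM18, in the authors' deposited table. TIM23, which forms the presequence translocase with Tim17, was at -0.35 in the wild type (0.18) and fell in Δscd6 (-0.71, 0.0038) and Δsbp1 (-1.04, 7.7e-06) in the authors' deposited table. TIM17 fell in Δsbp1 (-0.95, 0.027) and was at -0.32 (0.52) and -0.68 (0.14) in the wild type and Δscd6 of the authors' deposited table. TIM21, which links TIM23 to TOM and to respiratory complexes, fell in the wild type (-0.60, 0.0094), and MGR2, which guards lateral release, fell in Δscd6 (-0.55, 0.035), in the authors' deposited table. TIM50, the presequence receptor of the complex, was at -0.31, 0.36 and -0.38 in the authors' deposited table and did not pass.

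Of the 4 motor genes, 1 fell in each strain, where 20.6%, 20.4% and 27.4% of all genes fell. It was PAM18 each time. Its J-protein activates the matrix Hsp70 at the channel. The level went from 786 to 366 normalised counts in the wild type, from 898 to 595 in Δscd6 and from 803 to 339 in Δsbp1. In the authors' deposited table the log2 changes were -1.10 (adjusted p = 3.4e-05), -0.59 (0.033) and -1.24 (1.6e-06), and with equal totals that in Δscd6 no longer passed. PAM16, the partner that holds Pam18 in check, was at -0.30, -0.30 and -0.29 in the authors' deposited table, and TIM44, the scaffold of the motor, at -0.12, 0.02 and -0.46, none of which passed. PAM17 was at 0.01, -0.28 and -0.42 in the authors' deposited table.

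The only rises by the authors' adjusted p were 2 in Δsbp1, both of SAM genes, where 27.5% of all genes rose. With equal totals, import genes outside the SAM complex passed as rises too. SAM37 went from 305 to 425 normalised counts in the wild type, from 329 to 385 in Δscd6 and from 367 to 608 in Δsbp1. SAM37, a peripheral subunit that helps release finished barrels, rose in Δsbp1 (0.73, adjusted p = 0.0047) and was at 0.48 (0.088) and 0.23 (0.45) in the wild type and Δscd6 of the authors' deposited table. SAM50, the barrel-shaped core, rose in Δsbp1 (0.51, 0.029) and was at 0.13 (0.66) and 0.42 (0.093) in the others by the authors' deposited table. Their partner SAM35, which recognises the sorting signal, went the other way and fell in Δscd6 (-0.90, 6.1e-04) and Δsbp1 (-1.05, 2.6e-05), with -0.52 (0.055) in the wild type, in the authors' deposited table. With equal totals SAM37 passed as a rise in all 3 strains, and the fall of SAM35 in Δscd6 no longer passed.

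The disulfide relay did not pass in any strain. MIA40, its receptor, was at 0.24 (adjusted p = 0.39), 0.14 (0.65) and 0.11 (0.68), and ERV1, the oxidase that recharges it, at 0.12, -0.17 and 0.07 in the authors' deposited table. With equal totals MIA40 passed as a rise in Δscd6 (0.53, adjusted p = 0.033). IMP1, a peptidase of the inner membrane, fell in Δscd6 (-0.53, 0.045) and was at -0.34 and -0.31 in the wild type and Δsbp1 of the authors' deposited table.

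**Figure D2:**
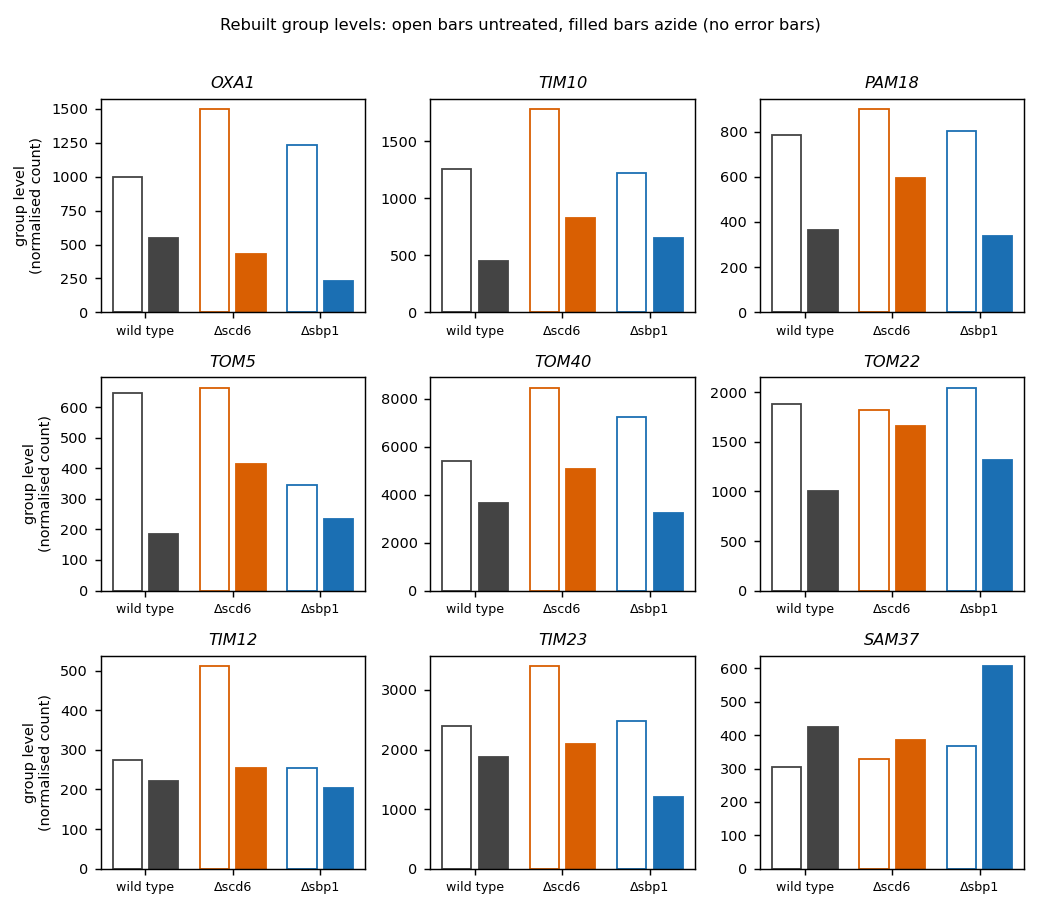
Rebuilt level of 9 import genes, on the y axis in normalised counts from 0, in untreated (open bars) and azide-treated (filled bars) cells of each strain on the x axis; bars have no error since values per library were not analysed. OXA1 drops to 229 in azide-treated Δsbp1 cells, TIM10 is below its untreated level in each strain, TIM12 stands highest in untreated Δscd6 cells at 512, and SAM37 reaches 608 in azide-treated Δsbp1 cells.

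A sequence feature that played no part in choosing the genes was common to many of them. Puf3, a Pumilio-family protein of yeast, binds the RNA form of the letters TGTANATA after the stop codon of many mRNAs for mitochondrial proteins. These 8 letters were searched on the sense strand of the 200 bases that follow each stop codon in RefSeq assembly R64, in which 5764 of the 6352 gene IDs, and all 32 of the import genes, were found. No build is named for the tables in the sources used here, so sequences and positions below are those of R64 alone. At least 1 match was present for 21 of the 32 import genes (65.6%) and for 837 of the 5764 genes (14.5%). On the opposite strand of the same windows the shares were 15.6% and 13.3%. The longer form CNTGTANATA was present for 12 import genes (37.5%) and 4.39% of all genes. In windows of 100 bases the shares were 40.6% and 10.5%, and in windows of 300 bases 71.9% and 16.6%. Matches in 200 bases were also present for 8 of 20 other import genes and 5 of 10 MICOS and ERMES genes, described below. They were present for 4 of 18 substrate carriers, 3 of 11 cytosolic chaperones and 1 of 5 genes that act when a translocase is blocked. A match is a description of the letters and not evidence of binding here.

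The matches were spread unevenly over the complexes. They were present for all 5 small Tim genes, all 3 TIM22 genes, both relay genes, 5 of 8 TOM genes, 3 of 4 motor genes, 2 of 5 TIM23 genes, 1 of the pair OXA1 and IMP1, and 0 of 3 SAM genes. The windows below show 24 bases each with the match in capitals. The first 6 belong to genes that fell with azide in at least 2 strains and hold a match, the next is TOM5, and the last 3 belong to genes that hold a match and passed in no strain.
OXA1: tatctctcTGTAAATAtaaaaata
TIM10: tcatatccTGTATATAcaagtaac
TIM22: tttatattTGTAAATAtcacctat
PAM18: ataagtctTGTAAATAacacggaa
TOM40: aataattaTGTATATAcgtgggca
TIM23: atggcgctTGTATATAgcatttga
TOM5: gaaagacgTGTAAATAttttttaa
MIA40: atgatacaTGTAAATAcagtaata
ERV1: gattctcgTGTATATAacactcca
TIM44: attccgctTGTAAATAactccgtt
Positions in brackets below are those of the whole 24-base windows, not of the capitals alone. The capitals begin 21 bases after the stop codon in OXA1 (chrV:476241-476264, plus strand) and 37 in TIM22 (chrIV:67931-67954, minus strand). In TIM10 they begin 104 bases after it (chrVIII:115501-115524, minus strand), in PAM18 143 (chrXII:165419-165442, minus strand) and in TOM40 147 (chrXIII:669794-669817, plus strand). Those of TIM23 begin at 80 (chrXIV:663653-663676, plus strand) and the first of 2 in TOM5 at 127 (chrXVI:797828-797851, plus strand). For the last 3 genes they begin at 56 in MIA40 (chrXI:77080-77103, plus strand), 64 in ERV1 (chrVII:544261-544284, plus strand) and 53 in TIM44 (chrIX:312505-312528, plus strand).

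Genes with and without a match overlapped widely in their azide responses. The group with a match holds all 6 import genes of up to 100 codons, described below, so the 2 divisions are not independent. In the wild type the 21 import genes with a match had a median log2 change of -0.47 and 9 fell, and the 11 without had -0.33 and 3 fell. In Δscd6 the medians were -0.52 with 7 falls and -0.14 with 3, and in Δsbp1 -0.46 with 8 falls and -0.36 with 3 falls and 2 rises. With equal totals each median of Δscd6 is raised by 0.39, which leaves the first below 0 and the second above it. Over all genes with a match the medians were -0.07, 0.02 and -0.02, and over those without -0.01, -0.02 and -0.01. Falls passed for 21.7%, 18.3% and 26.5% of all genes with a match, beside 21.1%, 20.7% and 27.9% of those without. Fallen genes without a match included TOM22, TOM71 and SAM35, and genes with a match that passed in no strain included MIA40, ERV1 and TIM44. PUF3 itself was at -1.03 in the wild type (adjusted p = 0.0086), -0.67 in Δscd6 (0.10) and -1.52 in Δsbp1 (6.7e-05) in the authors' deposited table.

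Loss of SCD6 or SBP1 changed few import genes. In untreated Δscd6 cells 1 of the 32 genes was higher than in the wild type and 0 were lower, where 1.45% of all genes were higher and 1.07% lower (2.52% in all). The higher gene was TIM12, at 274 normalised counts in the wild type and 512 in Δscd6, with a log2 difference of 0.90 in the authors' deposited table (adjusted p = 0.046) and an implied standard error of 0.28. With equal totals its call was lost (0.62, 0.087), and TOM70, TOM71 and TIM50 passed as lower instead, where 1.05% of all genes were higher and 19.6% lower. At an unadjusted p under 0.05, 7 import genes were higher and 2 lower, or 28.1% beside 19.0% of all genes. The median of the 32 genes was 0.23 there, and -0.05 with equal totals, beside -0.014 and -0.29 over all genes. In untreated Δsbp1 cells 0 of the 32 genes passed by the authors' adjusted p, where 1.98% of all genes did (1.54% higher and 0.441% lower), and 1 was higher and 2 lower at an unadjusted p under 0.05 (9.38%, near the 10.9% of all genes).

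In azide, 3 import genes were higher in Δscd6 than in the wild type and 0 were lower, where 2.03% of all genes were higher and 2.28% lower (4.31% in all). They were TOM7 (0.99, adjusted p = 0.025), TIM10 (0.87, 0.018) and TOM22 (0.72, 0.041) in the authors' deposited table. With equal totals the call of TOM22 was lost (0.69, adjusted p = 0.057), where 1.93% of all genes were higher and 2.75% lower. TOM5 did not pass, at 1.17 in the authors' deposited table (0.083), and its implied standard error was wide at 0.41. The unadjusted p was under 0.05 for 7 higher and 0 lower import genes, or 21.9% beside 14.9% of all genes. Of the 32 genes 27 had a positive log2 difference (84.4%), against 54.2% of all genes, with a median of 0.19 beside 0.032 and, with equal totals, of 0.15 beside -0.0048.

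In azide-treated Δsbp1 cells 3 import genes were lower than in the wild type and 0 higher, where 11.9% of all genes were lower and 9.29% higher (21.2% in all). OXA1 was at -1.25 (adjusted p = 1.3e-04), TIM23 at -0.64 (0.019) and TOM20 at -0.55 (0.041) in the authors' deposited table. With equal totals OXA1 alone of these passed (-1.12, adjusted p = 6.8e-04), and TIM10, SAM37 and IMP1 passed as higher, where 9.44% of all genes were lower and 16.3% higher. The unadjusted p was under 0.05 for 4 higher and 3 lower import genes, or 21.9% beside 33.3% of all genes. The median of the 32 genes was 0.004, with 16 of 32 positive, beside -0.015 over all genes.

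**Figure D3:**
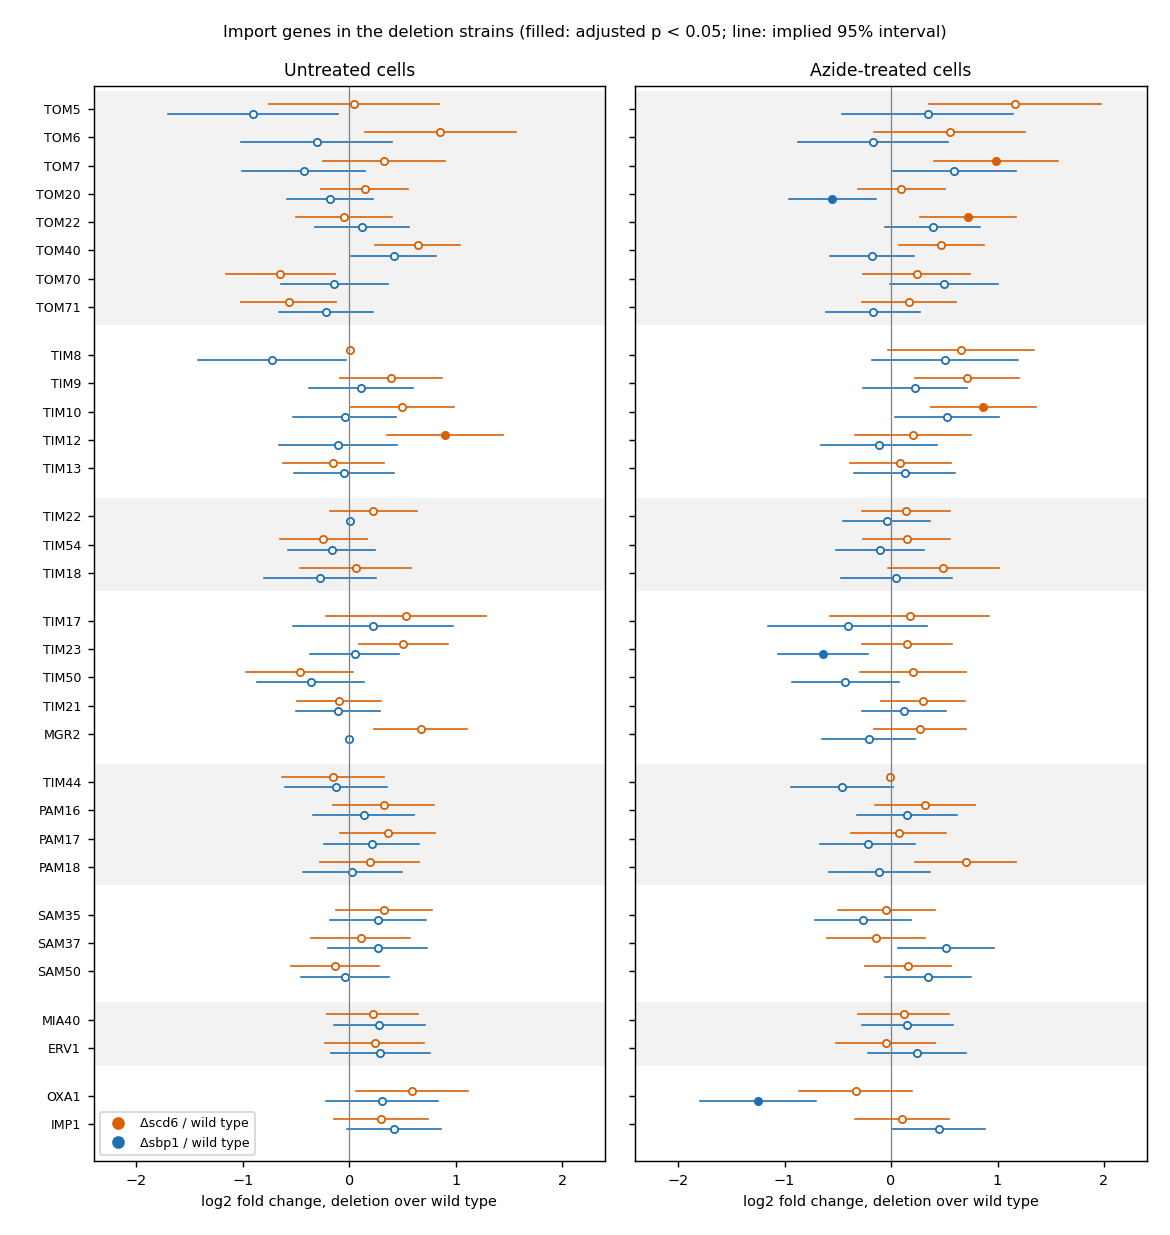
Log2 fold change of each import gene, on the x axis, in Δscd6 (orange) and Δsbp1 (blue) over the wild type, in untreated cells (left) and azide-treated cells (right), with genes by complex on the y axis. Filled points have an adjusted p under 0.05 and lines are implied 95% intervals, left out where a change is under 0.02 in size. On the left TIM12 alone is filled at 0.90, and on the right TOM7, TIM10 and TOM22 lie to the right in Δscd6 and OXA1, TIM23 and TOM20 to the left in Δsbp1; with equal totals the calls of TIM12, TOM22, TIM23 and TOM20 were lost.

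Whether the azide response itself differed between strains was tested as a difference of log2 changes. Errors were those implied by the authors' p-values, with Benjamini-Hochberg adjustment over all genes. The differences were not tested with equal totals, which raise azide changes by 0.15 in the wild type, 0.39 in Δscd6 and 0.28 in Δsbp1. OXA1 fell by 1.56 more in Δsbp1 than in the wild type (implied standard error 0.39, 95% interval -2.33 to -0.79, adjusted p = 0.0073), the 1 import gene of 32 to pass where 2.23% of all genes did (0.553% higher and 1.67% lower). Its difference between Δscd6 and the wild type was -0.92 (interval -1.68 to -0.16, adjusted p = 0.15). Between Δsbp1 and Δscd6 it was -0.64 (interval -1.42 to 0.14, adjusted p = 0.43).

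For Δscd6 minus the wild type 0 of 32 import genes passed, where 4.12% of all genes did (2.18% higher and 1.94% lower), and 4 had an unadjusted p under 0.05 (12.5%, beside 20.3% of all genes). These were TOM70 (0.89, adjusted p = 0.15), TOM22 (0.77, 0.16), TOM71 (0.73, 0.17) and OXA1. TOM5, whose fall passed in the wild type and not in Δscd6, had a difference of 1.13 with an interval from -0.01 to 2.27 (adjusted p = 0.25), and TOM7 of 0.66 with an interval from -0.16 to 1.48. Neither is shown to respond differently in Δscd6. For Δsbp1 minus Δscd6 0 of 31 import genes passed, where 5.57% of all genes did (1.53% higher and 4.04% lower), and 1, TIM50 (-0.74, adjusted p = 0.26), had an unadjusted p under 0.05, as 17.3% of all genes did. For the wild type and Δsbp1 the unadjusted count was 6 (18.8%, near the 15.5% of all genes), with OXA1, TIM23 and TOM40 below 0 and TIM8, TOM7 and TOM5 above it.

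The shortest import genes were also described apart from the rest, a division made after the values were seen. TOM5, TOM6, TOM7, TIM8, TIM9 and TIM10 have coding regions of 50 to 93 codons in R64. All 6 of these genes also hold a TGTANATA match, so length and match are not separated among them. Their median log2 change with azide was -0.92 in the wild type, -0.60 in Δscd6 and -0.41 in Δsbp1, and that of the 26 longer genes -0.33, -0.26 and -0.40. Over the 278 genes of up to 100 codons the medians were -0.05, -0.08 and 0.35. In azide the log2 differences of these 6 genes between Δscd6 and the wild type lay between 0.55 and 1.17, of which TOM7 and TIM10 passed, with a median of 0.79, beside 0.16 over the longer import genes and 0.29 over all short genes. In Δsbp1 against the wild type the medians in azide were 0.43, -0.11 and 0.22. In untreated cells the corresponding medians were 0.36, 0.21 and 0.26 for Δscd6 (less 0.28 with equal totals) and -0.37, 0.02 and -0.17 for Δsbp1. The implied errors of the short import genes were wider, with a median of 0.32 against 0.23 in the azide comparison of Δscd6 with the wild type, and the part of gene length in these values was not tested.

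**Figure D4:**
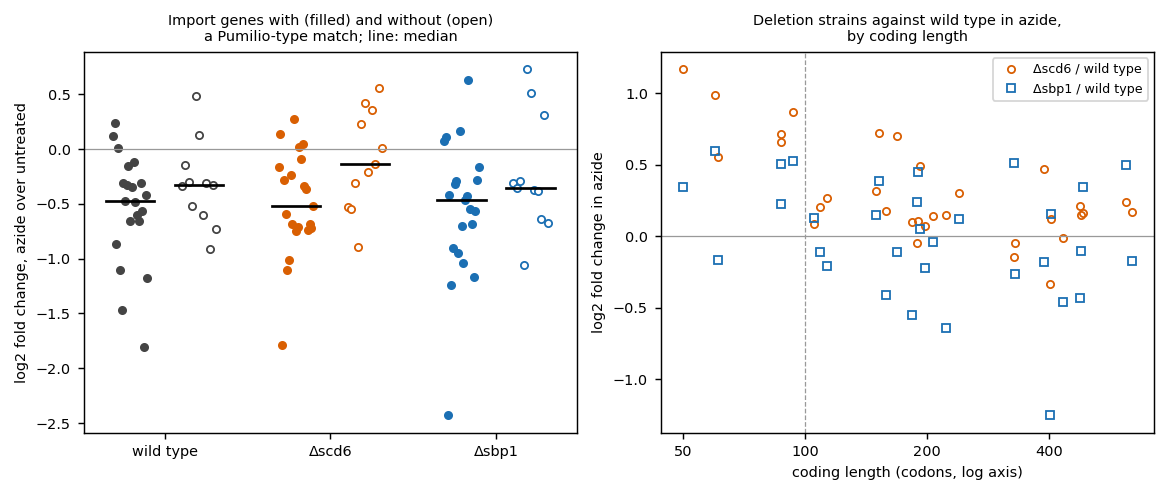
Left, log2 change with azide (y axis) of import genes with a TGTANATA match after the stop codon (filled) and without (open) in each strain (x axis), where lines are medians; right, log2 difference of azide-treated deletion strains from the wild type (y axis) for each import gene by coding length in codons (x axis, log scale) in Δscd6 (circles) and Δsbp1 (squares). The groups on the left overlap in each strain, with wild type medians of -0.47 and -0.33. The 6 genes left of the dashed line at 100 codons lie between 0.55 and 1.17 in Δscd6, and all 6 hold a match.

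Of 20 other import genes 3 rose and 5 fell in the wild type (21.3% and 20.6% of all genes), 7 and 4 in Δscd6 (22.1% and 20.4%), and 4 and 5 in Δsbp1 (27.5% and 27.4%), with medians of -0.10, -0.03 and 0.01 (0.05, 0.36 and 0.29 with equal totals). SSC1, the matrix Hsp70 that Pam18 activates, fell by 1.57 (adjusted p = 7.9e-07), 1.47 (4.1e-06) and 2.16 (4.8e-12) in the authors' deposited table. ICP55, a peptidase that trims imported proteins, rose by 1.13 (1.7e-07), 1.40 (1.5e-10) and 1.31 (5.9e-10) in the authors' deposited table. MIM1 and MIM2, which insert outer membrane proteins, were at -0.42 (0.29) and -0.48 (0.37) in the wild type and fell in Δscd6 (-1.36, 1.7e-04, and -1.85, 1.4e-04) and Δsbp1 (-1.06, 0.0028, and -1.07, 0.027), by the authors' deposited table.

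Of 11 cytosolic chaperones, among them carriers of precursors to the TOM receptors and chaperones at the ribosome, 1 rose in each strain. Falls passed for 5 in the wild type, 3 in Δscd6 and 4 in Δsbp1. Over all genes, 21.3%, 22.1% and 27.5% rose and 20.6%, 20.4% and 27.4% fell. The riser was SSA4, a stress-induced Hsp70, at 2.17 (adjusted p = 9.9e-18), 3.12 (2.1e-33) and 2.26 (1.4e-19) in the authors' deposited table. SSA2, a major cytosolic Hsp70, was at -1.65 (1.5e-05), -0.54 (0.19) and -2.13 (1.0e-08) in the authors' deposited table. SSB1 and SSB2, Hsp70 proteins at the ribosome, fell by 0.92 and 0.94 in the wild type, 1.11 and 1.17 in Δscd6, and 2.05 and 1.92 in Δsbp1 in the authors' deposited table. SSA2 has a near-identical relative in SSA1, and SSB1 in SSB2, so reads may be shared between them. Of 5 analysed genes that act when a translocase is blocked, MSP1 rose in each strain and PTH2, named since it was the only other to pass, fell in Δscd6 (-0.54, adjusted p = 0.045) in the authors' deposited table. MSP1, an ATPase which clears stalled proteins from the outer membrane, was at 0.83 (adjusted p = 1.1e-04), 1.44 (5.3e-12) and 1.22 (2.6e-09) with azide, and was higher than in the wild type in azide-treated Δscd6 (0.58, 0.046) and Δsbp1 cells (0.64, 0.0065), in the authors' deposited table.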

How the data were processed

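Libraries for Illumina sequencing were prepared from total RNA by an NEBNext kit, per the labels' protocols. The submitters' processing notes name STAR 2, Picard, featureCounts and edgeR and give no roles. Build, strand setting, normalisation and the treatment of multiply matching reads are not stated in the labels or file headers.

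Each of the 7 tables deposited by the authors covers 6352 genes and holds a mean normalised count (a linear signal), a fold change (a ratio) with its log2 value, and a raw and adjusted p-value. Benjamini-Hochberg adjustment of the raw p-values over all genes gives the deposited adjusted values to within 4.6e-08. A planned count model could not be run on comparison tables, so the authors' p-values were used.

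The implied standard error divides the size of a log2 change by the normal quantile its p-value stands for, where that size is at least 0.02. Differences of azide responses were tested against a normal distribution. Those from the wild type used the larger variance of the 2 routes to each. The calculation was also run on simulated data with changes planted in either deletion strain. Those data had normal errors of known size, so they cannot check errors that were estimated from 2 libraries per group. Alternatives were an adjusted p under 0.01, a log2 change of at least 0.58, centring on the median gene, equal totals of rebuilt group means, a mean signal of at least 50, a t distribution with 6 degrees of freedom and either variance alone. For differences of azide responses, equal totals and the limits on size and mean signal were not applied. Sequences are from RefSeq assembly R64. All import genes are named. Of other lists, the text names up to 4 genes that pass at an adjusted p under 0.05 with a log2 change of 1 or more in size. The members and lists were chosen with earlier results of these data known. The tools were Python 3.11.15, scipy 1.17.1, numpy 2.4.6, pandas 2.3.3 and, for figures, matplotlib 3.10.9.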

Additional observations from a re-analysis of the deposited data

Results flagged for a closer look

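The azide response of OXA1 differed between Δsbp1 and the wild type by a test of the difference itself. Its log2 change in Δsbp1 was 1.56 below that in the wild type (difference -1.56, implied standard error 0.39, adjusted p = 0.0073 over all genes), from -2.43 in Δsbp1 and -0.87 in the wild type. The value was the same with the variance of the azide responses alone (adjusted p = 0.0070) and with that of the comparisons with the wild type alone (0.0048). Centring on the median gene gave -1.57 (0.0068). A t distribution with 6 degrees of freedom gave an adjusted p of 0.041, but its quantile makes the implied standard error smaller, at 0.26. Equal totals were not tried for this difference. OXA1 did not pass for Δscd6 minus the wild type (adjusted p = 0.15) or for Δsbp1 minus Δscd6 (0.43).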

How the results depend on the processing

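Counts of import genes past the test, in either direction, stayed within 1.5 times in most settings. Such counts do not show a change of direction. Azide calls in Δscd6 went from 0 rises and 10 falls to 6 rises and 2 falls with equal totals. Those of Δsbp1 against the wild type in azide went from 0 higher and 3 lower to 3 higher and 1 lower. Falls with azide still outnumbered rises on that scale in the wild type (8 and 1) and Δsbp1 (6 and 4). At an adjusted p under 0.01 the count fell from 3 to 1 for Δsbp1 against the wild type in azide, from 3 to 0 for Δscd6 in azide and from 1 to 0 for untreated Δscd6. In untreated Δscd6 the count also became 2 with centring on the median gene (TIM12 and TOM40), 3 with equal totals (all lower) and 0 with a mean signal of at least 50. With a t distribution with 6 degrees of freedom 2 genes, OXA1 and TOM40, passed for Δsbp1 minus Δscd6 in place of 0, where that quantile makes implied errors very small for the smallest p-values (0.020 for OXA1). With equal totals the median over import genes turned from -0.32 to 0.070 for azide in Δscd6 and from 0.23 to -0.053 for untreated Δscd6. On that scale 21 of the calls of single genes were lost and others were gained. Before it, 12, 10 and 13 genes had passed with azide in the wild type, Δscd6 and Δsbp1. Against the wild type, 1 and 3 had passed in untreated and azide-treated Δscd6, and 0 and 3 in Δsbp1. Values per library and their depth were not analysed, so libraries were not left out in turn. No paired analysis was possible because the tables carry no value of a single replicate.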

Other observations

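Membrane scaffolds and carriers, the neighbours and passengers of the import machinery, were also followed with azide. Of 10 genes of the MICOS complex, which shapes inner membrane folds, and the ERMES tether to the endoplasmic reticulum, 5 rose and 1 fell in the wild type, 6 rose and 0 fell in Δscd6, and 5 rose and 0 fell in Δsbp1, with medians of 0.54, 0.54 and 0.57 (all genes: 21.3%, 22.1% and 27.5% rose and 20.6%, 20.4% and 27.4% fell). MIC27, a MICOS subunit, rose in each strain of the authors' deposited table, by 1.22, 1.42 and 1.38, and MDM12 of ERMES by 0.74, 0.58 and 1.04. GEM1, a GTPase of the tether, rose in the wild type (0.62) and Δscd6 (1.01) and was at 0.54 in Δsbp1 (adjusted p = 0.056) in the authors' deposited table.

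The 18 substrate carriers of the inner membrane, which the TIM22 route imports, had 7 rises and 6 falls in the wild type, 4 and 6 in Δscd6 and 6 and 6 in Δsbp1, where 42.0%, 42.5% and 54.9% of all genes passed. PIC2, a copper and phosphate carrier, rose by 4.16, 3.87 and 4.26, and ODC2, an oxodicarboxylate carrier, by 2.30, 1.64 and 2.70, in the authors' deposited table. SFC1, which exchanges succinate for fumarate, was at 2.43 (adjusted p = 5.8e-06), 0.77 (0.22) and 2.38 (1.9e-05) in the authors' deposited table. DIC1, the dicarboxylate carrier, fell by 0.90, 1.40 and 2.24 in the authors' deposited table.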
